A study of Homo sapiens with 16 samples.

Results

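ATF4 and 37 genes of the amino-acid response that it controls were followed across 16 libraries from HEK293, a line derived from human embryonic kidney. These 38 members were taken by symbol from 20802 gene targets, and 37 of them passed a filter on low counts, as did 12704 genes in all. ALDH1L2, a mitochondrial folate enzyme, had 0 to 3 reads per library and was not tested. The list had been drawn up with the drop of such genes after interferon already known from these libraries. Every comparison of a ligand with untreated cells below is therefore a description. A call there only marks a value past the threshold of the fit, with any library left out or not, and is no independent test of the members. Comparisons between receptor genotypes and between ligands, which the choice of members was not based on, are given with their tests. The comparisons known when the list was drawn up included those of wild-type cells with untreated ones. Differences of responses contain those comparisons, and other contrasts with wild-type cells share their libraries. Such p-values are therefore not independent of the choice.

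The cells carried receptors called optimized in the labels, in a study of the geometry between receptor-bound Janus kinases, or wild-type receptors. How the optimized receptors were built, and whether a genotype is a single clone, is not given in the labels. The ligands, given at 100 nM to either genotype, were IFNw (the type I interferon omega), H11 (labelled as a high-affinity variant of IFNL3) or IFNL3 (interferon lambda 3, type III), and other cells were left untreated. The labels give a 15 min exposure and a time of 24 hr and do not tie them together. Each of the 8 groups had 2 libraries, described as biological replicates without word of separate cultures, so that p-values measure the spread between these libraries. No mock-treated group was analysed here, and a ligand's effect and a difference in handling cannot be told apart. Nor can fewer cells of one state and less RNA per cell.

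ATF4 is a transcription factor whose mRNA is translated more efficiently when the initiation factor eIF2alpha is phosphorylated, which happens through GCN2 when amino acids are short, through PERK under stress of the endoplasmic reticulum and through PKR in the presence of double-stranded RNA. With partners of the C/EBP family it binds composite elements next to genes for amino acid synthesis, amino acid import and tRNA charging, and next to genes that slow growth through mTORC1. Because control is at translation, the level of ATF4 mRNA need not follow the activity of the protein. Cultured cell lines often keep part of the programme on in ordinary medium.

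The elements that ATF4 binds carry the core TGATGNAA, and RefSeq promoters (GRCh38.p14) were available for 29 of the 38 members. Between 250 bases before and 50 bases after the annotated start, the core or its reverse, TTNCATCA, was found in 5 of those 29 members (17.2%), against 3.67% of all 27305 promoters of that length and 1.66% of the 9323 promoters of genes tested here. Counting only the 250 bases before the start, 3 members (10.3%) held it, against 3.19% and 1.39%. The 3 are CHAC1, ASNS and ATF3, whose windows are printed because they show the element in front of genes described below. The core is in capitals, with 20 bases on each side, read 5′ to 3′ on the strand of the gene.
CHAC1, chr15:40953242-40953289, plus strand: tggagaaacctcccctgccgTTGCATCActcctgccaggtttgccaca
ASNS, chr7:97872449-97872496, minus strand: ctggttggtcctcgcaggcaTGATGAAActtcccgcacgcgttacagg
ATF3, chr1:212565196-212565243, plus strand: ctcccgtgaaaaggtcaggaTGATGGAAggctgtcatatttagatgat
The core begins 209 bases before the start of CHAC1, where it lies in reverse, 68 bases before that of ASNS and 191 bases before that of ATF3. A match is a string of letters and not a measured site, and the other promoters may hold an element outside these windows or in another spelling.

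Before the members are described, 2 features of the libraries bear on all of them. Levels are given as CPM, read counts scaled to library size, from totals of 5331203 to 9822088 reads, counted per target without regard to gene length, so levels are compared between libraries and not between genes. The 4 libraries of wild-type cells with H11 or IFNL3 stood apart from the other 12. The 50 most counted genes made up 17.7% to 18.5% of the reads there and 23.7% to 28.7% elsewhere. Across 11490 genes, Spearman's rho between annotated transcript length and the deviation from the mean over libraries was 0.38 to 0.42 in these 4 libraries. It was -0.44 to -0.41 in the libraries with IFNw and in optimized cells with H11, 0.03 to 0.08 in optimized cells with IFNL3 and 0.08 to 0.16 in untreated cells. The labels name no batch for this split, and genotype differences under H11 and IFNL3 rest on those 4 libraries. For some of these differences values with a length correction are therefore given too. Of 11 markers listed for HEK293 cells, 9 passed 1 CPM in a library, while NEFL and NEFM reached at most 0.87 and 0.38 CPM, and no listed marker of blood cells, hepatocytes or endothelium passed 1 CPM. Of 6 fibroblast markers COL1A1 (7.93 to 20.6 CPM) and THY1 (2.81 to 12.5 CPM) passed it, while COL1A2 and LUM had no read and DCN and PDGFRB stayed under 0.45 CPM. The summed fibroblast list lay at 15.4 to 20.2 CPM in wild-type cells with H11 or IFNL3, against 22.0 to 29.6 CPM in optimized cells with them. With IFNw it lay at 16.9 to 19.6 CPM in wild-type and 22.4 to 23.4 CPM in optimized cells. The summed HEK293 list lay at 649 to 671 CPM with H11 and 635 to 641 CPM with IFNL3 in wild-type cells. In optimized cells it lay at 419 to 484 and 575 to 589 CPM. The part of either list in the genotype differences was not tested.

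After every ligand most members were lower than in untreated cells of the same genotype. In optimized cells 31 of the 37 tested members were called lower with each of IFNw, H11 and IFNL3, with 15.9%, 15.2% and 6.05% of all genes called lower in those comparisons. In wild-type cells 29, 30 and 30 members were called lower, with 14.8%, 20.6% and 21.1% of all genes. None was called higher in any of the 6, where 17.5%, 17.2%, 7.26%, 16.6%, 18.2% and 18.7% of genes were called higher. The median log2 fold change of the members was -1.50, -1.47 and -1.43 in optimized cells and -1.33, -1.21 and -1.24 in wild-type cells, beside medians of -0.05 to -0.01 over all genes tested. In either direction, 33.4%, 32.4% and 13.3% of genes were called in optimized cells and 31.4%, 38.8% and 39.7% in wild-type cells. Nothing is read from these counts, since the members were listed for this direction. The 3 comparisons within a genotype share their untreated libraries.

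Within that shared direction the members differed widely. In 29 of the 37, all 12 ligand libraries lay below all 4 untreated libraries, which held for 4.75% of all genes tested, and 26 were called lower in all 6 comparisons. INHBE had the largest log2 fold change in each of the 6, between -6.31 and -4.32, while ALDH18A1, CBS, DDIT3 and SLC6A9 were called in none. When libraries were left out in turn, 9 members lost the call in at least 1 of the 6 comparisons, which were ATF3, ATF5, CEBPB, CEBPG, GDF15, GPT2, JDP2, NUPR1 and XPOT. ATF3 moved to -1.09 with IFNw and -0.43 with H11 without replicate 1 of untreated optimized cells, against -1.85 and -1.18 with it. That leaves replicate 2 alone, which had 11.9 CPM of ATF3, against 21.2 to 27.7 CPM in the other untreated libraries. The 8 members whose ligand and untreated libraries overlapped were DDIT3, ATF4, ATF5, XPOT, SLC6A9, CBS, PYCR1 and ALDH18A1.

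**Figure D1:**
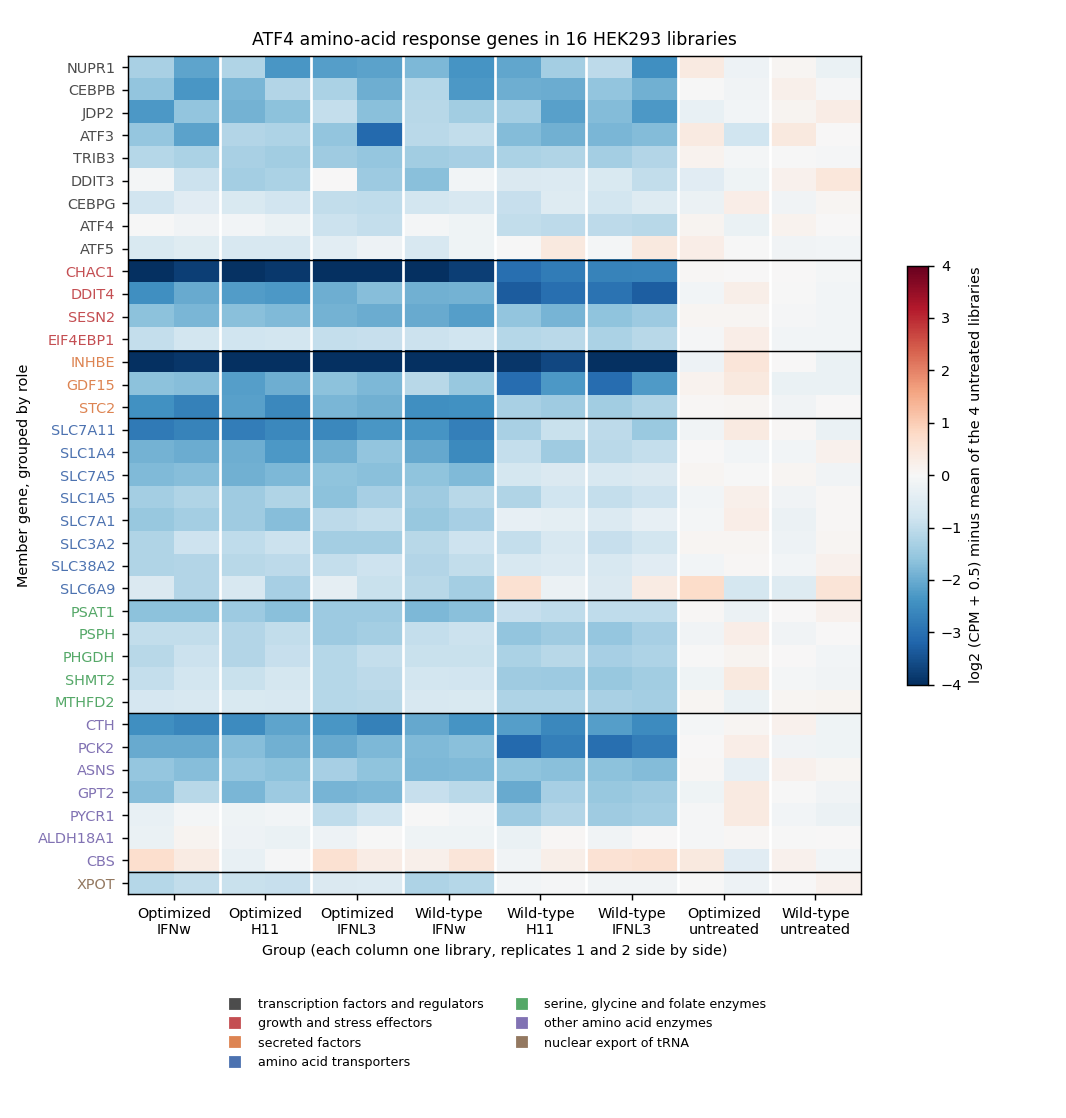
Colour gives log2 (CPM + 0.5) of each of the 37 tested members in each library, minus the mean of the 4 untreated libraries, with values beyond 4 in size drawn in the end colours. Columns are the 16 libraries in 8 groups of 2, and rows are genes grouped by role. CHAC1 and INHBE are the darkest rows in the ligand libraries, ALDH18A1 and CBS stay near white, and the transporters and XPOT are paler in wild-type cells with H11 or IFNL3 than in the other ligand groups.

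Among the transcription factors, ATF4 had 889 and 816 CPM in optimized cells with IFNw, 848 and 762 CPM with H11 and 503 and 466 CPM with IFNL3, against 987 and 753 CPM in untreated optimized cells. The wild-type libraries held 861 and 803 CPM with IFNw, 463 and 437 CPM with H11 and 439 and 421 CPM with IFNL3, against 1003 and 910.0 CPM in untreated wild-type cells. In optimized cells the libraries with IFNw and H11 lay inside the range of the untreated ones and those with IFNL3 below it, while in wild-type cells all 6 ligand libraries lay below both untreated ones. As group means the order was 957 ± 65.8 CPM in untreated wild-type cells, 870.0 ± 165 in untreated optimized cells, 853 ± 51.4 in optimized cells with IFNw, 832 ± 40.3 in wild-type cells with IFNw, 805 ± 60.7 in optimized cells with H11, 484 ± 26.0 in optimized cells with IFNL3, 449.8 ± 18.1 in wild-type cells with H11 and 430.0 ± 12.4 in wild-type cells with IFNL3 (SD, n = 2). The means of the first 5 groups lie within the range of the untreated optimized pair, so neighbours among them do not differ beyond their spread. The gap from there to the last 3 is wider than the range of any replicate pair, and among those 3 the neighbouring means lie within 2 SDs of each other.

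Against untreated cells the log2 fold change of ATF4 mRNA was -0.03 with IFNw, -0.11 with H11 and -0.85 with IFNL3 in optimized cells, and -0.20, -1.09 and -1.15 in that order of ligands in wild-type cells. In the same groups ASNS, asparagine synthetase, had -1.50 with IFNw, -1.48 with H11 and -1.34 with IFNL3 in optimized cells, and -1.92, -1.77 and -1.82 in that order of ligands in wild-type cells. The list was not drawn from contrasts between ligands, but those in wild-type cells share libraries with the comparisons known then. The groups called apart next also differed in their relation to transcript length, whose part was not tested. Between ligands, ATF4 was higher with IFNw than with IFNL3 in optimized cells (0.82 ± 0.13, adjusted p = 0.000386) and in wild-type cells (0.95 ± 0.13, adjusted p = 8.98e-06). It was also higher with H11 than with IFNL3 in optimized cells (0.73 ± 0.13, adjusted p = 0.00103) but not called so in wild-type cells (0.06 ± 0.13, adjusted p = 1).

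NUPR1, a small stress-induced chromatin protein, was counted at low levels. It had 0.804 and 0.249 CPM in optimized cells with IFNw, 0.898 and 0.142 CPM with H11 and 0.204 and 0.223 CPM with IFNL3, against 3.67 and 2.28 CPM in untreated optimized cells. In cells with wild-type receptors the values were 0.418 and 0.131 CPM with IFNw, 0.261 and 0.745 CPM with H11 and 1.07 and 0.0897 CPM with IFNL3, against 2.93 and 2.19 CPM in untreated wild-type cells. All 12 ligand libraries lay below the 4 untreated ones, on 1 to 12 reads each. CEBPB, a C/EBP factor that pairs with ATF4, had 0.748 to 2.37 CPM in the 12 ligand libraries, against 5.25 to 6.73 CPM in the 4 untreated ones. JDP2, a basic leucine zipper repressor, had 0.268 to 1.43 CPM in the 12 ligand libraries, against 2.55 to 4.09 CPM in the 4 untreated ones. Neither gene's ligand range overlapped its untreated range.

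TRIB3, a pseudokinase that binds ATF4 and damps its activity, was counted at higher levels and with little spread. It had 73.0 and 65.7 CPM in optimized cells with IFNw, 65.2 and 61.1 CPM with H11 and 59.0 and 54.8 CPM with IFNL3, against 175 and 152 CPM in untreated optimized cells. Wild-type cells had 60.1 and 64.0 CPM with IFNw, 66.1 and 69.5 CPM with H11 and 62.1 and 71.5 CPM with IFNL3, against 158 and 156 CPM in untreated wild-type cells. The ligand libraries of both genotypes formed one range well under the untreated one, and the log2 fold changes against untreated cells lay between -1.52 and -1.21 in the 6 comparisons. ATF3, a stress-induced repressor of the same leucine zipper family, had 2.01 to 10.2 CPM in the 12 ligand libraries, against 11.9 to 27.7 CPM in the 4 untreated ones, and CEBPG, a dimer partner of ATF4, had 10.8 to 16.2 CPM in the 12 ligand libraries, against 18.9 to 27.0 CPM in the 4 untreated ones.

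DDIT3, which encodes CHOP, the factor that ATF4 induces ahead of stress-linked cell death, could not be resolved at this depth. It had 2.28 and 1.12 CPM in optimized cells with IFNw, 0.641 and 0.711 CPM with H11 and 2.44 and 0.558 CPM with IFNL3, against 1.63 and 2.10 CPM in untreated optimized cells. In wild-type cells it had 0.418 and 2.23 CPM with IFNw, 1.48 and 1.49 CPM with H11 and 1.43 and 0.987 CPM with IFNL3, against 2.82 and 3.49 CPM in untreated wild-type cells. These are 3 to 35 reads per library, the ligand and untreated ranges overlapped, and DDIT3 was not called in any comparison. ATF5, a leucine zipper factor under the same translational control as ATF4, had 30.8 to 64.5 CPM in the 12 ligand libraries, against 44.5 to 58.7 CPM in the 4 untreated ones, again with overlap. It was called lower with IFNw and H11 in optimized cells and was not called in wild-type cells with H11 (0.33 ± 0.19) or IFNL3 (0.32 ± 0.19), and with the length correction those 2 values became 0.56 and 0.55 and passed as higher.

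Of the effectors that act on redox state and growth, CHAC1, a cytosolic enzyme that breaks down glutathione, had the widest separation. CHAC1 had 5.22 and 7.48 CPM in optimized cells with IFNw, 6.54 and 6.97 CPM with H11 and 4.69 and 6.14 CPM with IFNL3, against 110.1 and 109.8 CPM in untreated optimized cells. The wild-type libraries held 4.73 and 7.49 CPM with IFNw, 12.8 and 14.9 CPM with H11 and 16.4 and 16.7 CPM with IFNL3, against 109 and 102 CPM in untreated wild-type cells. No ligand library came near an untreated one, and wild-type cells with H11 or IFNL3 kept more CHAC1 than any other ligand group. Against untreated cells its log2 fold change was -4.11 with IFNw, -4.02 with H11 and -4.35 with IFNL3 in optimized cells, and -4.10, -2.93 and -2.67 in that order of ligands in wild-type cells, with SEs of 0.18 to 0.21.

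SESN2, a leucine sensor that restrains mTORC1 through the GATOR complexes, was lower in all ligand groups. It had 44.1 and 38.9 CPM in optimized cells with IFNw, 43.4 and 40.4 CPM with H11 and 37.3 and 35.1 CPM with IFNL3, against 148 and 149 CPM in untreated optimized cells. In cells with wild-type receptors the values were 33.8 and 29.8 CPM with IFNw, 46.3 and 38.5 CPM with H11 and 45.1 and 51.0 CPM with IFNL3, against 134 and 128 CPM in untreated wild-type cells. All 12 ligand libraries lay far under the untreated ones, the lowest in wild-type cells with IFNw and the highest in wild-type cells with IFNL3.

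DDIT4, which inhibits mTORC1 through the TSC complex, ran the other way between the genotypes from CHAC1. DDIT4 had 21.2 and 28.7 CPM in optimized cells with IFNw, 24.9 and 23.9 CPM with H11 and 30.1 and 35.7 CPM with IFNL3, against 109 and 140.1 CPM in untreated optimized cells. Wild-type cells had 30.9 and 31.5 CPM with IFNw, 11.5 and 14.2 CPM with H11 and 14.8 and 11.7 CPM with IFNL3, against 117 and 110.2 CPM in untreated wild-type cells. Wild-type cells with H11 or IFNL3 held the 4 lowest libraries, under every library of optimized cells. EIF4EBP1, the translation repressor that mTORC1 inactivates, had 155 to 226 CPM in the 12 ligand libraries, against 342 to 446 CPM in the 4 untreated ones and did not overlap.

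Among the secreted factors, INHBE, an inhibin beta chain of the TGF-beta family, had 0.402 and 0.623 CPM in optimized cells with IFNw, 0.385 and 0.142 CPM with H11 and 0.204 and 0.223 CPM with IFNL3, against 13.9 and 22.4 CPM in untreated optimized cells. In wild-type cells it had 0.278 and 0.131 CPM with IFNw, 0.609 and 0.827 CPM with H11 and 0.358 and 0.359 CPM with IFNL3, against 16.1 and 13.2 CPM in untreated wild-type cells. Each ligand library held 1 to 10 reads of INHBE, against 128 to 148 reads in each untreated library. In wild-type cells with IFNw there were 3 reads over both libraries, against 280 in untreated wild-type cells, a level 71.8-fold lower with a 95% counting interval of 24.3 to 350.1. STC2, a glycoprotein hormone of the stanniocalcin family, had 20.9 to 59.5 CPM in the 12 ligand libraries, against 125 to 146 CPM in the 4 untreated ones, and GDF15, a stress-induced hormone that suppresses appetite, had 0 to 1.39 CPM in the 12 ligand libraries, against 2.89 to 4.90 CPM in the 4 untreated ones. GDF15 had 0 reads in replicate 1 of wild-type cells with H11 and in replicate 1 of wild-type cells with IFNL3, and 4 reads in the other replicate of each.

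The transporters import amino acids or exchange them across the plasma membrane. SLC7A11, which imports cystine in exchange for glutamate, had 15.3 and 17.2 CPM in optimized cells with IFNw, 15.9 and 18.1 CPM with H11 and 18.3 and 21.8 CPM with IFNL3, against 101 and 142 CPM in untreated optimized cells. The wild-type libraries held 21.3 and 16.4 CPM with IFNw, 44.9 and 59.7 CPM with H11 and 53.2 and 39.5 CPM with IFNL3, against 115 and 92.7 CPM in untreated wild-type cells. The 4 libraries of wild-type cells with H11 or IFNL3 lay between the other ligand libraries and the untreated ones, with no overlap on either side.

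SLC7A5, the large neutral amino acid exchanger LAT1, showed the same order. It had 93.6 and 97.3 CPM in optimized cells with IFNw, 84.0 and 90.4 CPM with H11 and 104 and 99.3 CPM with IFNL3, against 332 and 315 CPM in untreated optimized cells. In cells with wild-type receptors the values were 104 and 93.8 CPM with IFNw, 195 and 214 CPM with H11 and 205 and 213 CPM with IFNL3, against 338 and 285 CPM in untreated wild-type cells. Again the 4 libraries of wild-type cells with a type III ligand formed a middle range. The log2 fold change of SLC7A5 against untreated cells was -1.76 with IFNw, -1.89 with H11 and -1.67 with IFNL3 in optimized cells, and -1.65, -0.61 and -0.58 in that order of ligands in wild-type cells.

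The remaining transporters are given by their ranges. SLC3A2, the heavy chain that carries SLC7A5 and SLC7A11 to the membrane, had 159 to 261 CPM in the 12 ligand libraries, against 354 to 433 CPM in the 4 untreated ones. SLC7A1, a cationic amino acid carrier, had 48.5 to 127 CPM in the 12 ligand libraries, against 135 to 195 CPM in the 4 untreated ones. SLC1A4, an exchanger of small neutral amino acids, had 15.0 to 45.7 CPM in the 12 ligand libraries, against 82.9 to 101 CPM in the 4 untreated ones. None of these 3 overlapped. SLC1A5, an exchanger that brings in glutamine, had 97.7 to 177 CPM in the 12 ligand libraries, against 280.1 to 351 CPM in the 4 untreated ones. SLC38A2, a sodium-coupled carrier known to be induced by amino acid shortage, had 80.6 to 136 CPM in the 12 ligand libraries, against 174 to 209.8 CPM in the 4 untreated ones. Both were again clear of overlap. SLC6A9, a glycine carrier, had 0.263 to 2.52 CPM in the 12 ligand libraries, against 0.700 to 2.75 CPM in the 4 untreated ones, on 2 to 29 reads per library, with overlap between ligand and untreated libraries.

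The enzymes that make serine from a glycolytic intermediate are PHGDH, PSAT1 and PSPH, in that order of steps. PSAT1 had 188 and 188 CPM in optimized cells with IFNw, 215 and 182 CPM with H11 and 213 and 215 CPM with IFNL3, against 605 and 498 CPM in untreated optimized cells. Wild-type cells had 166 and 184 CPM with IFNw, 308 and 288 CPM with H11 and 290.1 and 286 CPM with IFNL3, against 592 and 652 CPM in untreated wild-type cells. Wild-type cells with H11 or IFNL3 again formed a middle range. PHGDH had 145 to 201 CPM in the 12 ligand libraries, against 340.3 to 392 CPM in the 4 untreated ones, and PSPH had 61.2 to 101 CPM in the 12 ligand libraries, against 168 to 222 CPM in the 4 untreated ones. Both were clear of overlap. SHMT2, which passes a serine carbon to mitochondrial folate, had 134 to 233 CPM in the 12 ligand libraries, against 339 to 496 CPM in the 4 untreated ones. MTHFD2, the folate dehydrogenase one step on, had 255 to 426 CPM in the 12 ligand libraries, against 545 to 698 CPM in the 4 untreated ones. None of the 5 overlapped between ligand and untreated libraries, and all 5 were called lower in all 6 comparisons.

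ASNS, which makes asparagine and is a textbook ATF4 target, varied little between ligands. It had 125 and 111 CPM in optimized cells with IFNw, 122 and 116 CPM with H11 and 145 and 119 CPM with IFNL3, against 378 and 288 CPM in untreated optimized cells. In wild-type cells it had 104 and 106 CPM with IFNw, 119 and 114 CPM with H11 and 117 and 108 CPM with IFNL3, against 411 and 383 CPM in untreated wild-type cells. The 12 ligand libraries lay together, and all were below the 4 untreated ones.

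PCK2, the mitochondrial enzyme that makes phosphoenolpyruvate from oxaloacetate, was lowest in the wild-type libraries with type III ligands. It had 43.8 and 43.1 CPM in optimized cells with IFNw, 53.7 and 46.2 CPM with H11 and 43.1 and 50.2 CPM with IFNL3, against 181 and 216 CPM in untreated optimized cells. The wild-type libraries held 51.5 and 55.3 CPM with IFNw, 20.3 and 26.2 CPM with H11 and 21.3 and 25.9 CPM with IFNL3, against 161 and 158 CPM in untreated wild-type cells. The 4 wild-type libraries with H11 or IFNL3 lay under all other ligand libraries. CTH, which releases cysteine from cystathionine, had 17.1 to 27.6 CPM in the 12 ligand libraries, against 101 to 128 CPM in the 4 untreated ones, and GPT2, mitochondrial alanine transaminase, had 16.6 to 36.5 CPM in the 12 ligand libraries, against 61.1 to 87.9 CPM in the 4 untreated ones. Neither overlapped. CBS, the enzyme one step before CTH, had 0.641 to 1.74 CPM in the 12 ligand libraries, against 0.525 to 1.32 CPM in the 4 untreated ones, on 3 to 19 reads per library, and was not called in any comparison.

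The 2 enzymes of proline synthesis were among the members not called lower in all 6 comparisons. PYCR1, which catalyses the last step, had 251 and 296 CPM in optimized cells with IFNw, 277 and 289 CPM with H11 and 152 and 176 CPM with IFNL3, against 302 and 395 CPM in untreated optimized cells. In wild-type cells it had 305 and 288 CPM with IFNw, 113 and 138 CPM with H11 and 116 and 120.3 CPM with IFNL3, against 289 and 265 CPM in untreated wild-type cells. PYCR1 lay around the untreated level in wild-type cells with IFNw, a little under it in optimized cells with IFNw or H11, and well under it in the other 3 ligand groups, the same 3 in which ATF4 mRNA was low. ALDH18A1, which catalyses the first step, had 65.1 to 84.4 CPM in the 12 ligand libraries, against 76.6 to 80.9 CPM in the 4 untreated ones, and its log2 fold changes lay between -0.24 and -0.07 with none called.

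XPOT, the exportin that carries tRNA out of the nucleus, was close to untreated in wild-type cells with type III ligands. XPOT had 69.4 and 76.7 CPM in optimized cells with IFNw, 81.7 and 81.3 CPM with H11 and 102 and 104 CPM with IFNL3, against 152 and 133 CPM in untreated optimized cells. In cells with wild-type receptors the values were 64.6 and 68.4 CPM with IFNw, 142 and 147 CPM with H11 and 139 and 139 CPM with IFNL3, against 156 and 173 CPM in untreated wild-type cells. Those 4 libraries lay under both untreated wild-type libraries, but inside the range of the untreated optimized pair. The log2 fold change of XPOT in wild-type cells was -0.18 ± 0.11 with H11 and -0.24 ± 0.12 with IFNL3, neither called, against -0.81 ± 0.12 and -0.47 ± 0.12 in optimized cells.

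**Figure D2:**
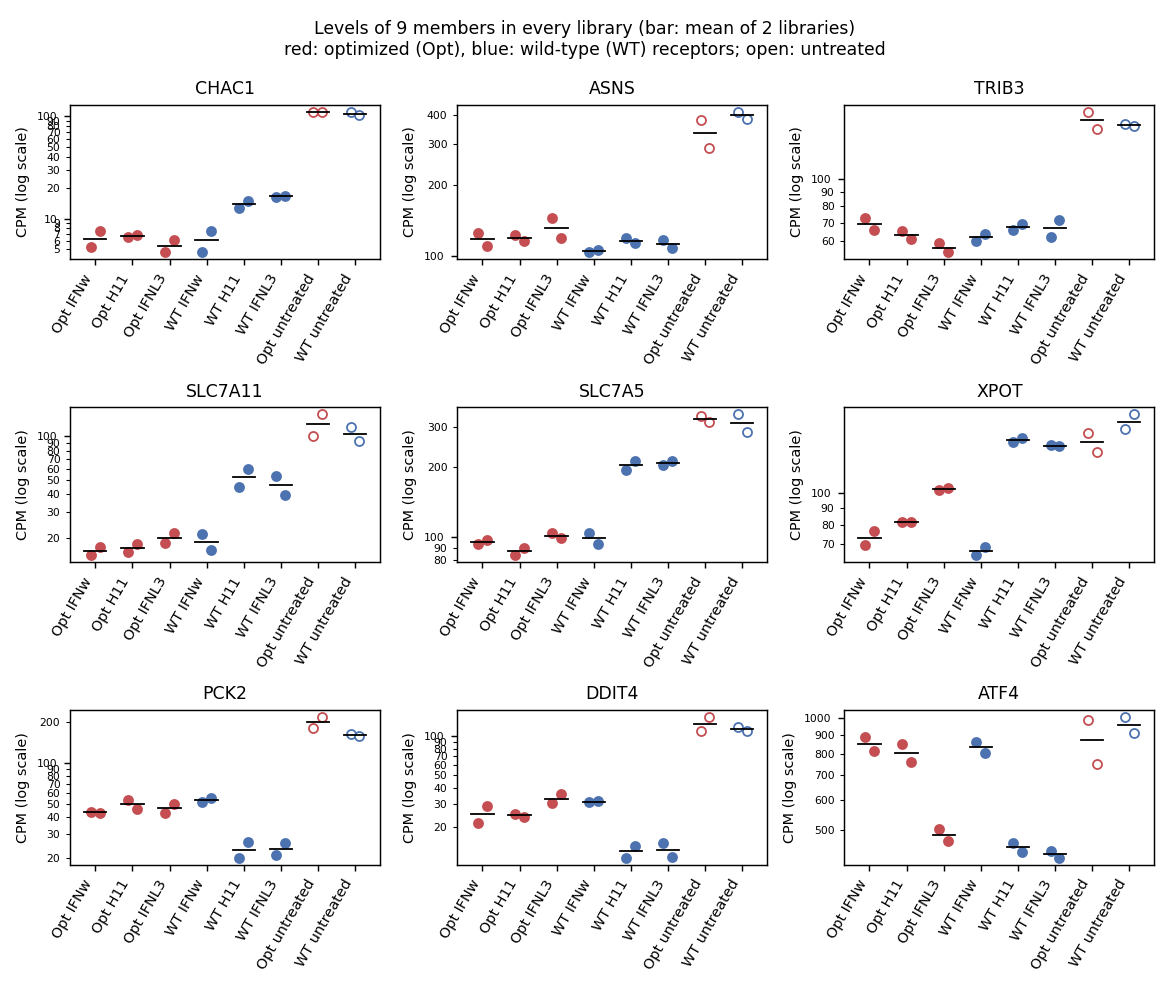
Points give the CPM of 9 members in each library on a log axis, in red for optimized and blue for wild-type cells, open for untreated cells, with a bar at the mean of the 2 libraries of a group. SLC7A11, SLC7A5 and XPOT lie higher, and PCK2 and DDIT4 lower, in wild-type cells with H11 or IFNL3 than in any other ligand group, while the 12 ligand libraries span 104 to 145 CPM for ASNS and 54.8 to 73.0 CPM for TRIB3, and ATF4 is low in 3 groups.

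Optimized and wild-type cells were then compared within each treatment. The list was not drawn from this contrast, but the contrast shares wild-type libraries with the comparisons known at that time. In untreated cells and with IFNw no member was called, and no gene of 12704 (0% called in either) by edgeR or by DESeq2. At an unadjusted p under 0.05 there were 705 genes with 2 members in untreated cells, and 439 genes with 1 member with IFNw. The 95% interval of the genotype difference lay within 2-fold in either direction for 29 of 37 members in untreated cells and for 28 with IFNw. The 2 replicates of untreated optimized cells formed the least alike pair of libraries, and replicate 2 had the fewest reads of all (5331203). Without replicate 1 that library stands alone for its group. The difference was then 0.48 for SHMT2, 0.51 for PYCR1, -0.35 for MTHFD2 and -0.46 for ASNS. In each of these genes replicate 2 lay outside the range of the other untreated libraries, with 496 CPM of SHMT2 and 288 CPM of ASNS.

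With H11, 8 members were higher in optimized cells (25.6% of all genes were) and 10 were lower (26.1%). The 18 called of 37 stand beside 51.7% of all genes called, so the number of members called is near the background. With IFNL3, 3 were higher (18.1% of all genes) and 11 lower (15.1%). These 14 of 37 stand beside 33.2% of genes, so the total is again near the background. The median log2 difference of the members was -0.07 with H11 and -0.34 with IFNL3, beside -0.05 and -0.01 over all genes.

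Among the transporters all calls were on the lower side. Of the 8 transporters, 5 fell in optimized cells relative to wild-type cells with H11 (26.1% of all genes fell) and 6 with IFNL3 (15.1%), none rose (25.6% and 18.1% of all genes did), and their median difference was -1.08 with H11 and -0.67 with IFNL3. The group as such was not tested. SLC7A11 differed by -1.62 ± 0.22, adjusted p = 8.1e-06 with H11 and by -1.21 ± 0.21, adjusted p = 0.000308 with IFNL3. For SLC7A5 the values were -1.23 ± 0.12, adjusted p = 2.47e-07 and -1.04 ± 0.12, adjusted p = 5.47e-06. SLC7A1 had -1.20 ± 0.16, adjusted p = 6.82e-06 with H11 and -0.56 ± 0.15, adjusted p = 0.009 with IFNL3, and SLC1A4 had -0.96 ± 0.20, adjusted p = 0.000611 and -0.74 ± 0.19, adjusted p = 0.00678. SLC38A2 fell with H11 (-0.50), and SLC1A5 (-0.60) and SLC3A2 (-0.53) fell with IFNL3.

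CHAC1 also fell in optimized cells relative to wild-type cells, by 1.04 ± 0.21, adjusted p = 0.000545 with H11 and by 1.61 ± 0.21, adjusted p = 1.82e-05 with IFNL3 on the log2 scale. STC2 (-1.03 and -0.59), XPOT (-0.83 and -0.43) and PSAT1 (-0.59 and -0.43) fell with both ligands, ATF5 with H11 (-0.85) and SESN2 with IFNL3 (-0.41). In 10 of 37 members all 4 wild-type libraries with H11 or IFNL3 lay above all 8 other ligand libraries. This held for 22.7% of all genes, so the number of members is near the background. The 10 were CHAC1, SLC7A11, STC2, ATF5, PSAT1, XPOT, SLC7A5, SLC7A1, SLC1A4 and SLC38A2.

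The members that rose in optimized cells relative to wild-type cells were other enzymes and regulators. PCK2 was higher by 1.10 ± 0.16, adjusted p = 1.81e-05 with H11 and by 0.98 ± 0.16, adjusted p = 0.000151 with IFNL3. DDIT4 was higher by 0.92 ± 0.19, adjusted p = 0.000591 and by 1.31 ± 0.18, adjusted p = 4.31e-05, and PYCR1 by 1.17 ± 0.15, adjusted p = 3.62e-06 and by 0.47 ± 0.14, adjusted p = 0.0191. With H11 alone, ATF4 (0.84), SHMT2 (0.64), MTHFD2 (0.60), PSPH (0.44) and EIF4EBP1 (0.34) passed. ASNS (0.04 ± 0.14, adjusted p = 0.846 and 0.23 ± 0.14, adjusted p = 0.214) and TRIB3 (-0.10 ± 0.13, adjusted p = 0.521 and -0.23 ± 0.13, adjusted p = 0.173) did not pass with either ligand.

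**Figure D3:**
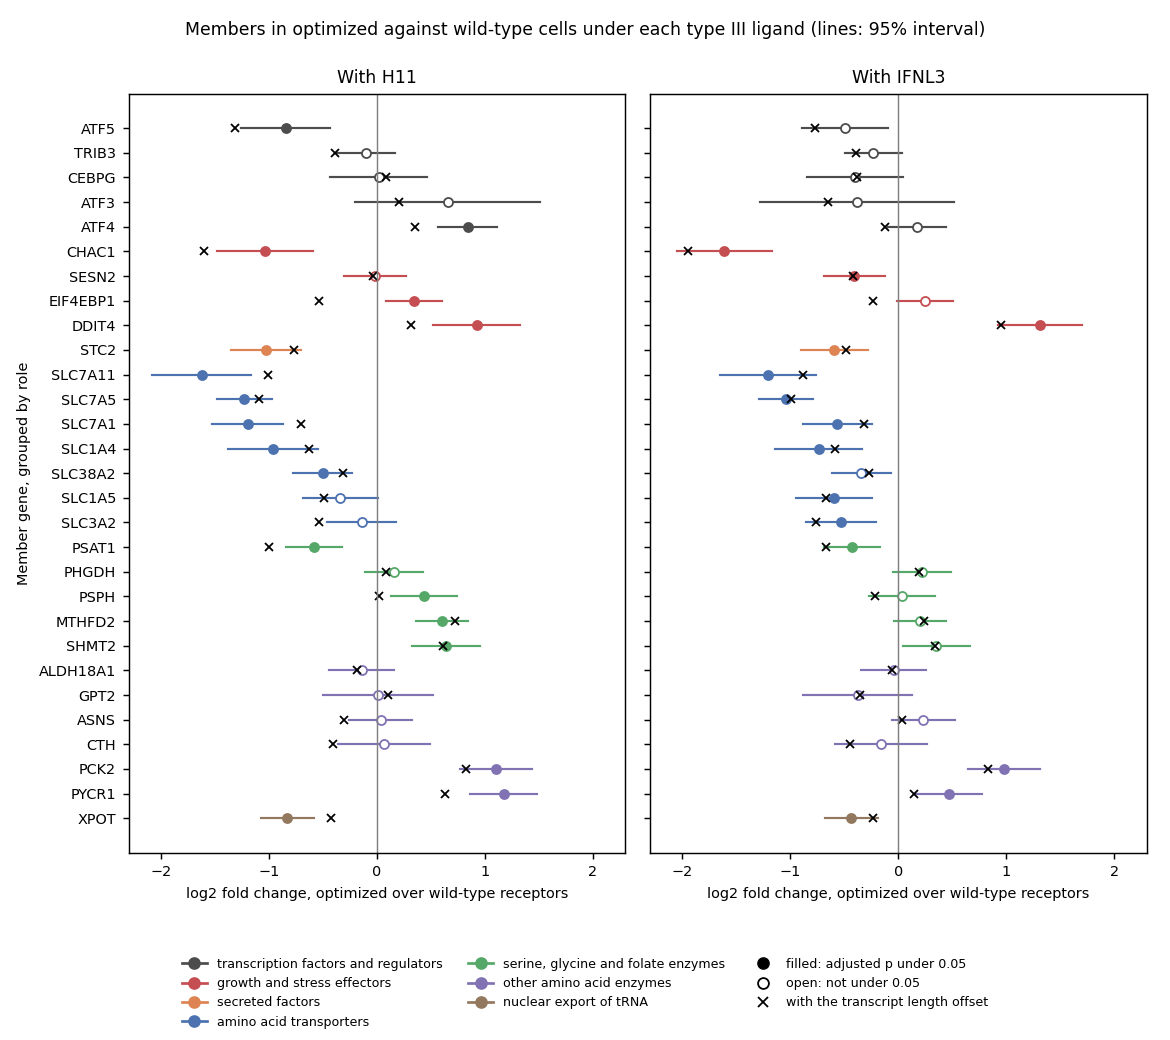
Points give the log2 fold change of optimized over wild-type cells with H11 (left) and IFNL3 (right) for 29 members, coloured by role, with 95% intervals. Filled points have an adjusted p under 0.05, and crosses give the value with the transcript length correction. The 8 tested members that stayed under 3 CPM in all ligand libraries are not drawn. The transporters lie left of 0, PCK2, PYCR1 and DDIT4 lie right of it, and the cross of EIF4EBP1 lies on the other side of 0 from its point.

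These differences moved with transcript length. Across the 37 members Spearman's rho between the longest annotated transcript and the optimized over wild-type fold change was -0.42 with H11 and -0.46 with IFNL3, a description over genes that share the same libraries. The transporters have long transcripts, 2222 to 9645 bases with a median of 4712.5, against 1020 to 3453 bases for the growth effectors. When a smooth trend on length was removed from each library, 14 of the 18 calls with H11 and 11 of the 14 with IFNL3 remained in the same direction. SLC7A11 became -1.01 and -0.89, SLC7A5 -1.09 with H11, and CHAC1, whose longest transcript has 1849 bases, -1.60 and -1.95. PCK2 became 0.82 and 0.83 and was still called. DDIT4 with H11 became 0.32 (adjusted p = 0.193) and PSPH 0.02 (adjusted p = 0.941), so that both calls were lost, as was that of PYCR1 with IFNL3 (0.14, adjusted p = 0.508). EIF4EBP1 turned to -0.54 with H11 (adjusted p = 0.00261), the opposite direction. These are not all of the lost calls with either ligand. Apart from SLC7A11, and SLC7A5 with H11, corrected values of the called transporters appear only as crosses in the plot of genotype differences. How many of the transporter calls held with the correction is therefore not stated here. What part length has in the genotype difference was not tested.

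**Figure D4:**
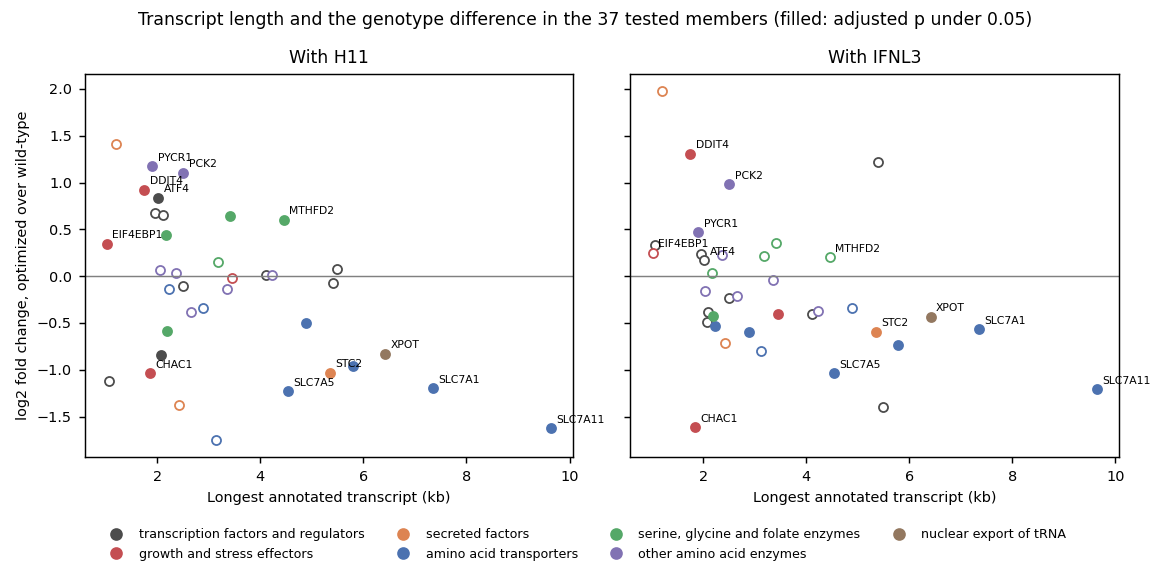
Each point is one of the 37 tested members, coloured by role, with the length of its longest annotated transcript in kilobases on the horizontal axis and the log2 fold change of optimized over wild-type cells on the vertical axis, for H11 (left) and IFNL3 (right). Filled points have an adjusted p under 0.05. SLC7A5, SLC7A1, SLC7A11, STC2 and XPOT have long transcripts and lie below 0, while CHAC1 has a short one and lies below 0 too.

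The calls with H11 held when single libraries were left out, except for PSPH without replicate 1 of wild-type cells or replicate 2 of optimized cells (adjusted p = 0.13 and 0.117) and EIF4EBP1 without either of those or replicate 2 of wild-type cells (0.118, 0.105 and 0.0742). The calls with IFNL3 were less steady. Without replicate 2 of wild-type cells 4 members stayed lower, with SESN2, STC2, PSAT1, SLC3A2, SLC7A1, SLC1A4, SLC1A5 and PYCR1 at adjusted p of 0.0544 to 0.201. Without replicate 1 of optimized cells CHAC1, SLC7A11, STC2 and SLC7A5 stayed lower and ATF3 (-1.52, adjusted p = 0.0434) was called in addition, with SESN2, PSAT1, XPOT, SLC3A2, SLC7A1, SLC1A4 and SLC1A5 at 0.0549 to 0.118. Without replicate 2 of optimized cells 7 stayed lower, with SESN2, STC2, PSAT1, SLC3A2 and PYCR1 at 0.0513 to 0.162. Without replicate 1 of wild-type cells PSAT1 and PYCR1 missed the threshold (0.0672 and 0.104). CHAC1, SLC7A11, SLC7A5, PCK2 and DDIT4 kept their calls whichever library was left out, with both ligands.

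The genotype difference in untreated cells was taken into account by testing the responses themselves, as the ligand effect in optimized cells minus that in wild-type cells. The wild-type part is a comparison that was known when the members were listed, so these tests are not independent of the choice. For IFNw no member and no gene (0%) differed by edgeR or DESeq2, with 633 genes and 3 members at an unadjusted p under 0.05. For H11, 5 members had a higher value in optimized cells (19.5% of all genes) and 8 a lower one (17.4%). These 13 of 37 stand beside 36.9% of all genes, so the number called is near the background. For IFNL3, 2 were higher (11.1%) and 8 lower (7.31%). SLC7A11 (-1.84 and -1.43), SLC7A5 (-1.28 and -1.09) and CHAC1 (-1.10 and -1.68) were lower in both, and DDIT4 (0.79 and 1.18) and PCK2 (0.79 and 0.67) higher in both. Of these, CHAC1, SLC7A11 and SLC7A5 kept both calls when any single library was left out, DDIT4 that with IFNL3. DDIT4 with H11 missed it without 4 of the 8 libraries in turn (adjusted p = 0.0537 to 0.0973), and PCK2 missed it for H11 without replicate 1 of wild-type cells with H11 (0.0564) and for IFNL3 without 5 of the 8 (0.067 to 0.166). With the length correction only 1 member was called positive with H11 (against 5) and only 1 with IFNL3 (against 2). DDIT4 and PCK2 were thus not both called higher with either ligand after that correction. The other values are given in the closing section.

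Ligands were compared with each other inside a genotype, in contrasts that use no untreated library. In wild-type cells H11 and IFNL3, a pair that differs by affinity for the receptor according to the labels, gave no called member and no called gene (0%) by edgeR or DESeq2, with 158 genes and 0 members at an unadjusted p under 0.05. For 29 of 37 members the 95% interval of the difference lay within 2-fold. In optimized cells the pair did separate, with 5 of 37 members called beside 17.6% of all genes, no larger a share. The relation to transcript length differed between these groups too. With the length correction 3 of the 5 calls remained in the same direction. Higher with H11 than with IFNL3 were PYCR1 (0.79 ± 0.14, adjusted p = 0.00141), ATF4 (0.73) and MTHFD2 (0.50 ± 0.11, adjusted p = 0.00652), 3 members beside 10.7% of all genes. Lower were SLC7A1 (-0.56 ± 0.16, adjusted p = 0.0203) and STC2 (-0.49 ± 0.15, adjusted p = 0.037), beside 6.86% of genes. Both of these lost the call without either replicate of optimized cells with IFNL3 or without replicate 2 of those with H11, at adjusted p of 0.0675 to 0.387.

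IFNw against IFNL3 in optimized cells is a comparison that shares its IFNL3 libraries with the last one. It called 6 of 37 members beside 19.1% of all genes, again no larger a share. With the length correction 4 of the 6 calls remained in the same direction. PYCR1 (0.74 ± 0.14, adjusted p = 0.002), ATF4 (0.82), MTHFD2 (0.48 ± 0.11, adjusted p = 0.00754) and PSPH (0.43 ± 0.14, adjusted p = 0.0446) were higher with IFNw, 4 members beside 11.5% of genes. STC2 (-0.68 ± 0.16, adjusted p = 0.00565) and XPOT (-0.49 ± 0.12, adjusted p = 0.00739) were lower, beside 7.58%. PSPH lost the call without any one of the 4 libraries compared (0.101 to 0.162), STC2 without replicate 1 of IFNL3 or replicate 2 of IFNw (0.0574 and 0.0988), XPOT without replicate 1 of IFNw or either replicate of IFNL3 (0.0507 to 0.107), and MTHFD2 without replicate 2 of IFNL3 (0.0501). H11 against IFNw in optimized cells gave no called member or gene (0%) by edgeR or DESeq2, with 279 genes and 0 members at an unadjusted p under 0.05, and 28 of 37 intervals within 2-fold.

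In wild-type cells IFNw stood apart from both type III ligands. Against IFNL3, 10 members were higher with IFNw (25.9% of genes) and 11 lower (27.2%), which is near the background in number. With the length correction 17 of these 21 calls remained in the same direction. Of the 8 transporters 5 were lower with IFNw, including SLC7A11 (-1.30 ± 0.21, adjusted p = 7.57e-05) and SLC1A4 (-1.28 ± 0.20, adjusted p = 4.22e-05), as were CHAC1 (-1.43 ± 0.21, adjusted p = 2.45e-05), STC2 (-1.15 ± 0.15, adjusted p = 7.41e-06) and XPOT (-1.06 ± 0.12, adjusted p = 1e-06). PYCR1 (1.32 ± 0.15, adjusted p = 8.92e-07), DDIT4 (1.23 ± 0.19, adjusted p = 3.09e-05) and PCK2 (1.18 ± 0.16, adjusted p = 8.7e-06) were higher with IFNw. EIF4EBP1 was also called higher (0.37), but became -0.53 with the length correction. H11 against IFNw gave 12 members higher with H11 (26.6%) and 9 lower (25.7%), among them XPOT (1.12), SLC7A11 (1.47), PYCR1 (-1.24) and DDIT4 (-1.28). Of those 21 calls, 18 remained in the same direction with the length correction. ATF5 and SLC38A2 missed the threshold in both comparisons when replicate 1 of the wild-type IFNw pair was left out. GDF15 was called higher with IFNw than with IFNL3 (2.59 ± 0.87, adjusted p = 0.0188) and lower with H11 than with IFNw (-2.67 ± 0.87, adjusted p = 0.0157), on few reads. Its values became 1.64 and -1.76 without replicate 1 of the type III group (adjusted p = 0.141 and 0.12), but 6.37 and -6.36 without replicate 2 (0.00574 and 0.00538), which leaves a library with 0 reads, and both calls were also lost without replicate 1 of IFNw (0.104 and 0.0939). SLC6A9 was called higher with H11 than with IFNw (2.39 ± 0.87, adjusted p = 0.0288), also on few reads, and missed the threshold without replicate 1 of H11 (1.73, adjusted p = 0.197) or either replicate of IFNw (0.0903 and 0.157).

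Genes of the same pathway outside the members were taken from lists that had also been drawn up with earlier results of these data known. Their comparisons with untreated cells, called in the same fit, are therefore a description as well. Shares of all genes called in these 6 comparisons, to be set beside each count below, were 15.9%, 15.2% and 6.05% lower and 17.5%, 17.2% and 7.26% higher in optimized cells with IFNw, H11 and IFNL3, and 14.8%, 20.6% and 21.1% lower and 16.6%, 18.2% and 18.7% higher in wild-type cells. EIF2AK2, which encodes PKR and is itself an interferon-stimulated gene, had 236 ± 0.751, 233 ± 21.5 and 310.0 ± 22.3 CPM with IFNw, H11 and IFNL3 in optimized cells, against 75.6 ± 16.5 CPM untreated (SD, n = 2). In wild-type cells it had 223 ± 0.630, 277 ± 4.44 and 276 ± 9.41 CPM, against 57.2 ± 5.33 CPM, and it rose in all 6 comparisons. EIF2AK4, which encodes GCN2, had 40.4 ± 3.15, 36.5 ± 3.80 and 47.2 ± 1.61 CPM in optimized cells in that order of ligands, against 50.1 ± 1.26 CPM untreated. It fell in 3 of the 6 comparisons, by 0.45 ± 0.15 with H11 in optimized cells and by 0.55 ± 0.15 and 0.43 ± 0.15 with IFNw and H11 in wild-type cells on the log2 scale. Of the 17 tested genes of this list, 5, 6 and 2 fell in optimized cells and 4, 3 and 2 in wild-type cells with IFNw, H11 and IFNL3, and 3, 2, 1, 4, 1 and 1 rose.

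Of 12 tRNA synthetase genes that ATF4 is known to drive, 10, 10 and 9 fell in optimized cells with IFNw, H11 and IFNL3, and 11, 6 and 6 in wild-type cells. Their median log2 fold change lay between -1.02 and -0.88 in optimized cells, and was -1.15, -0.36 and -0.37 in wild-type cells. GARS, the glycine enzyme, had -1.86 ± 0.15, -1.83 ± 0.15 and -1.51 ± 0.15 in optimized cells and -1.61 ± 0.15, -0.80 ± 0.15 and -0.84 ± 0.15 in wild-type cells. WARS, the tryptophan enzyme and an interferon-stimulated gene, rose in the 3 optimized comparisons (0.35 ± 0.11, 0.40 ± 0.11 and 0.52 ± 0.11). Earlier results of these libraries had already shown the synthetases lower, so they are not independent of the members.

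Of 26 tested further targets of ATF4 and CHOP, 12, 11 and 8 fell in optimized cells and 9, 9 and 9 in wild-type cells, while 3, 3, 2, 4, 3 and 3 rose. KLHL24, a ubiquitin ligase adaptor, fell by at most 2.10 on the log2 scale and WIPI1, an autophagy protein, by between 0.96 and 1.88, each in all 6 comparisons. BBC3, the pro-apoptotic protein PUMA, had -2.07 ± 0.25 with H11 and -2.61 ± 0.26 with IFNL3 in wild-type cells, both called. LAMP3, a lysosomal membrane protein that interferon also induces, rose in all 6 (1.27 to 1.82). The ATF6 and XBP1 arm of the unfolded protein response, which is separate from ATF4, did not follow the members. In optimized cells 10, 10 and 7 of its 19 genes rose and 2, 3 and 1 fell, and in wild-type cells 8, 2 and 2 rose and 3, 5 and 3 fell. HSPA5, the chaperone BiP, rose in optimized cells (1.06 ± 0.13, 1.02 ± 0.13 and 0.71 ± 0.13) and with IFNw in wild-type cells (1.39 ± 0.13), and HERPUD1, which ATF4 also controls, fell in all 6 (-1.73 to -1.31).

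The remaining lists had called genes in both directions, and several of their counts lie near the shares over all genes. Folate and glycine enzymes outside the members had 1 to 3 of 14 higher and 0 to 2 lower, and MTHFS, which recycles formyl folate, rose with all 3 ligands in optimized cells (1.84 ± 0.15, 1.73 ± 0.15 and 0.78 ± 0.15) and with IFNw in wild-type cells (1.80 ± 0.14). NRF2 targets, which share SLC7A11 as a target, had 6 and 5 of 14 higher in wild-type cells with H11 and IFNL3, led by OSGIN1 (2.21 ± 0.48 and 2.29 ± 0.47) and HMOX1 (0.96 ± 0.17 and 1.09 ± 0.17), and 0 or 1 higher elsewhere, while 3 were lower in each of those comparisons and 1 to 3 in the other 4. p53 targets had 0 to 4 of 13 higher and 1 to 3 lower, and CDKN1A, the cell cycle inhibitor p21, fell with H11 (-0.99 ± 0.20) and IFNL3 (-1.25 ± 0.21) in wild-type cells. Of 23 mTORC1 regulators, 2 to 6 were lower and 1 to 4 higher, and DEPTOR, an mTOR inhibitor, fell in all 6 (-2.66 to -1.38).

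**Figure D5:**
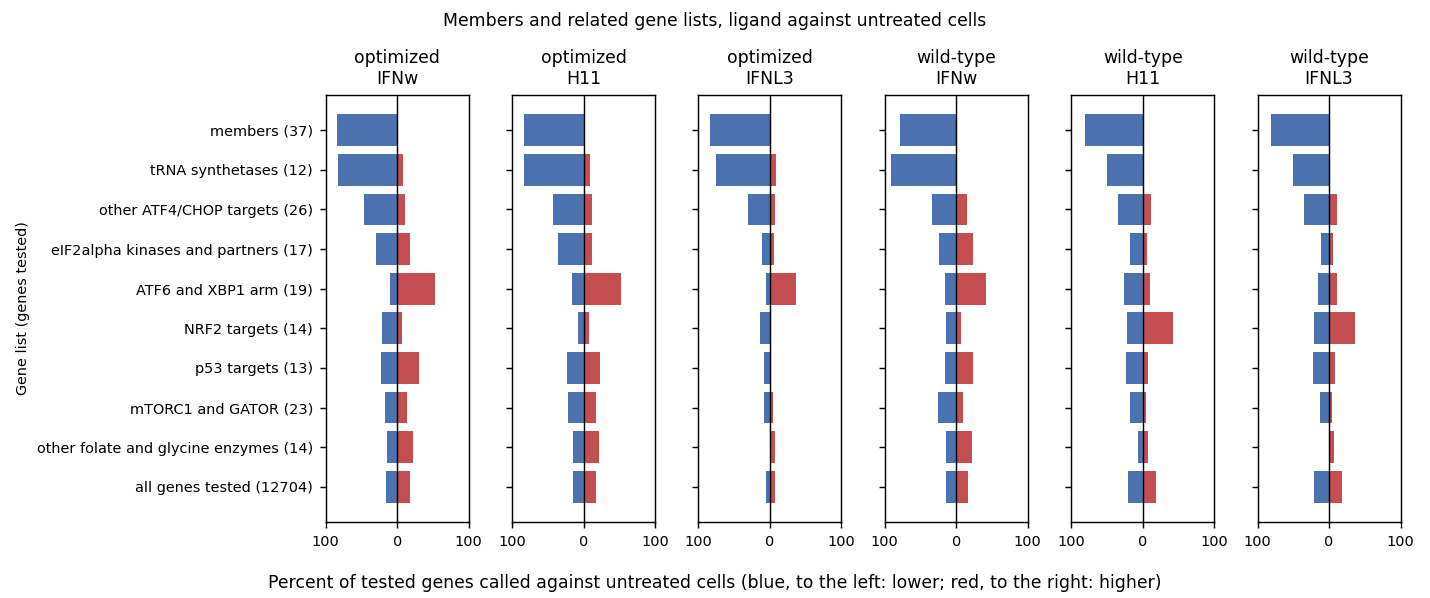
Bars give the percent of tested genes called lower (blue, to the left) and higher (red, to the right) against untreated cells for the members and 8 related lists, with all genes tested in the last row, in one panel per genotype and ligand. The bars of the members and of the tRNA synthetases point left in all 6 panels, those of the ATF6 and XBP1 arm mostly right in optimized cells and in wild-type cells with IFNw.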

How the data were processed

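RNA from HEK293 cells had been made into 16 Ion Torrent libraries, and the deposited files hold raw read counts per gene target, as made by the authors. Per the submitters' processing notes the genome was hg19. The aligner and the counter were not given in the sources used here. Of 20812 targets per file, 10 spike-ins with at most 1 read were left out, and 27 of 28 symbols that had been turned into dates were restored. Libraries held 5331203 to 9822088 reads. Genes were filtered with filterByExpr, scaled by TMM and tested with edgeR 4.0.16 in R 4.3.3, by a quasi-likelihood fit over all 16 libraries with 1 coefficient per group. P-values were adjusted over 12704 genes (Benjamini-Hochberg), a gene was called at an adjusted p under 0.05, and the 19 comparisons were contrasts of that fit. CPM were computed here from the counts and the TMM-scaled totals, and standard errors are the log2 fold change over the root of its F statistic. The common dispersion was 0.0176, a coefficient of variation of 13.3%.

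Alternatives were DESeq2 1.42.0, its size factors, no filter beyond a read, the replicate number as a block, the compared groups alone, each library left out, and a per-library correction by a natural spline with 5 degrees of freedom on log length of the longest annotated transcript, which covered 90.4% of the genes. The code was tested on simulated counts. Counting intervals cover counting error only.

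The members and lists were chosen with earlier results of these data known, and 146 of 163 list memberships matched a target. All members are named. Library values are given for the member of each role with the largest change against untreated cells and for others fixed by name, and SLC7A5, PCK2, PYCR1, XPOT and further list genes were chosen after their values were seen. Genes of the other lists were picked from those called, mostly by size.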

Additional observations from a re-analysis of the deposited data

Results flagged for a closer look

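The responses of the genotypes to a ligand, each against its own untreated cells, differed by the edgeR test of the difference for 13 members with H11 and 10 with IFNL3, beside 36.9% and 18.4% of all 12704 genes. With H11 the number of members called is near the background. Values are log2 fold changes in optimized cells minus those in wild-type cells. With H11 the difference was negative, meaning a lower value in optimized cells, for CHAC1 -1.10, SLC7A11 -1.84, STC2 -1.15, ATF5 -1.11, XPOT -0.63, SLC7A5 -1.28, SLC7A1 -1.39 and SLC1A4 -0.89. It was positive, meaning a higher value in optimized cells, for DDIT4 0.79, ATF4 0.98, MTHFD2 0.77, PCK2 0.79 and PYCR1 0.84. With IFNL3 it was negative for CHAC1 -1.68, SESN2 -0.58, SLC7A11 -1.43, STC2 -0.72, SLC7A5 -1.09, SLC3A2 -0.66, SLC7A1 -0.76 and SLC1A5 -0.68, and positive for DDIT4 1.18 and PCK2 0.67.

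With the transcript length correction 7 of the 13 differences with H11 and 8 of the 10 with IFNL3 were still called in the same direction. When single libraries were left out, those of DDIT4, SLC1A4 and PCK2 with H11 and of SESN2, STC2, PCK2, SLC3A2, SLC7A1 and SLC1A5 with IFNL3 missed the threshold at least once. The 4 libraries of wild-type cells with H11 or IFNL3, which stood apart in their relation to transcript length, enter every one of these differences, and their part in them was not tested. Groups of 2 libraries do not allow a search for single outlying libraries.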

How the results depend on the processing

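Counts of members called higher or lower stayed within 1.5 times of the reported ones in 235 of 248 refits with another tool, scaling, filter, length or model setting, and in 150 of 176 refits without 1 library, where a lone library is taken to vary like the other groups. Of single members, 1018 of 1057 and 643 of 764 kept direction and side of the threshold. Only members called in the main fit entered the tally of single members, and against untreated cells only those with the largest changes. In the tally of counts, a 0 that stayed 0 was taken as unchanged. Both tallies therefore lean towards stability. The length correction gave 1 member higher against untreated wild-type cells with H11 and 1 with IFNL3 (ATF5, against 0), 5 higher in optimized than wild-type cells with H11 (against 8), and 1 positive response difference with H11 (against 5) and 1 with IFNL3 (against 2). For EIF4EBP1 it turned 0.34 into -0.54 (optimized over wild-type cells with H11) and 0.37 into -0.53 (IFNw over IFNL3 in wild-type cells). With the compared groups alone in the fit, the IFNL3 response difference gave 1 positive and 4 negative members (against 2 and 8). H11 over IFNL3 in optimized cells had 3 higher and 2 lower members, against 5 higher without a low-count filter, 6 with the replicate block, 5 with the compared groups alone, 1 lower with the length correction and 1 lower without the wild-type H11 and IFNL3 groups in the fit, a setting added after seeing the data. IFNw over IFNL3 in optimized cells had 4 lower with the replicate block (against 2). Beyond the length correction's own construction, the cause was not tested.

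Leaving out 1 library gave ranges of 0 to 2 higher and 0 to 2 lower for optimized over wild-type untreated cells, 4 to 11 lower with IFNL3, 0 to 1 positive and 0 to 3 negative differences of the IFNw responses, 3 to 7 positive with H11, and 1 to 4 positive and 3 to 8 negative with IFNL3. It gave 0 to 2 lower for H11 over IFNL3 and 2 to 4 higher and 0 to 1 lower for IFNw over IFNL3 in optimized cells, and 6 to 10 higher for IFNw over IFNL3 in wild-type cells. Same-numbered libraries deviated weakly together. The correlation of their deviations from the group means was 0.0846 to 0.212 over 28 pairs of groups, over 0.1 in 27 but not in all, which pairing was set to require (0.144 to 0.387, over 0.1 in all 28, for genes of at least 10 CPM). The labels tie the numbers to no shared batch, so the values with the block above are alternatives. The replicate block changed no other count of members by more than 1.5 times. DDIT3, CBS, SLC6A9, NUPR1, JDP2, GDF15 and INHBE rest on few reads, and differences between ligand groups in them were mostly not detectable at this depth.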
